A study of Mus musculus with 4 samples.

Results

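The genes described are 8 feedback inhibitors of NF-κB signaling, *Nfkbia*, *Nfkbib*, *Nfkbie*, *Nfkbiz*, *Tnfaip3*, *Tnip1*, *Birc3* and *Bcl3*, taken by symbol from the 32285 genes of the count tables. All 8 were counted in each of the 4 libraries. They were chosen by their levels, detection and correlation across cells in these same libraries, so the values below are a description, and no test was made of them. Single-cell RNA sequencing was run on cultured cells of chow diet-fed male C57BL/6J mice, with 1 library per condition. De-differentiated fat (DFAT) cells make up the libraries iWAT_DFAT and eWAT_DFAT. They were obtained by ceiling culture, in which floating adipocytes of the inguinal (iWAT) or epididymal (eWAT) depot adhere to the upper wall of a filled flask and become spindle-shaped. The iWAT_ASPC and eWAT_ASPC libraries hold adipose stem and progenitor cells (ASPCs), which the sample labels call SVF cells, grown in primary culture from the stromal vascular fraction of either depot. Cells of all 4 libraries were cultured, lifted with trypsin and sorted after staining with the viability dye 7-AAD, so none was measured fresh from tissue. The labels do not give how many mice or cultures went into a library.

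NF-κB is a family of transcription factors that is held in the cytoplasm by IκB proteins. Signals from receptors such as those for TNF, IL-1 and bacterial products activate the IκB kinase (IKK) complex, which marks the IκB proteins for destruction and lets NF-κB enter the nucleus. Many genes that NF-κB then switches on encode its own brakes, among them new IκB protein and enzymes that edit the ubiquitin chains of the receptor complexes. Levels of these genes are therefore widely read alongside the pathway, although they also answer to other signals.

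Cells were barcodes with 5000 to 75000 UMIs (unique molecular identifiers, each standing for 1 captured RNA molecule), 200 to 7500 genes and under 10% mitochondrial UMIs. Values are given throughout in the order iWAT_DFAT, eWAT_DFAT, iWAT_ASPC, eWAT_ASPC, and these libraries had 7629, 6464, 7424 and 6745 such cells. Their median depth was 22111, 27425, 24930 and 27617 UMIs, and their UMIs added up to between 183664704 and 199357348 per library. Any pair of libraries shared between 13 and 20 cell barcodes. Of 8 stromal markers, 7 or 8 reached 5 CPM (counts per 1000000 UMIs of a library's cells) in every library, with summed levels of 5991, 2061, 6419 and 5791 CPM. The 8 adipocyte markers, with *Lep* at 0 UMIs in every library, summed to 352, 2196, 83.4 and 337 CPM, most of it *Fabp4*. Immune markers summed to 16.7 to 64.4 CPM, and *Ptprc*, the pan-leukocyte marker, had between 2 and 96 UMIs per library. The cell numbers that the study states for eWAT_DFAT and iWAT_ASPC look exchanged when set beside those of the files, so a mix-up of these names somewhere is possible. One in the stated numbers alone would leave the ratios below as they are, while one in the file labels would change every ratio. The labels were kept. The library labelled eWAT_DFAT had 6 of 8 adipocyte markers at 5 CPM or more and 40 cells with 5 or more mesothelial markers, a cell type that lines the visceral depots, while that labelled iWAT_ASPC had 1 of 8 and 0 such cells. Of the mesothelial markers *Krt19* alone went the other way, at 3.76 CPM in eWAT_DFAT and 70.7 CPM in iWAT_ASPC. *Saa3*, an acute-phase protein, stood at 3115 CPM in iWAT_DFAT and 80.9 CPM in eWAT_ASPC, whose labels are not in doubt, and at 683 CPM in the library labelled eWAT_DFAT and 0.431 CPM in that labelled iWAT_ASPC.

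The promoters of these genes are shown first, since several are known to carry binding sites of NF-κB itself. RefSeq promoter sequences (GRCm38.p6, 250 bases before to 50 bases after the transcription start) were found for 7 of the 8 genes, and 4 of the 7 held at least 1 match to the κB motif, searched on both strands in the form that ends in TTCC. Of the 32851 promoters in the same table, 2.92% held such a match. The match in *Nfkbia* lay 29 to 20 bases before the start, that in *Nfkbie* 106 to 97 bases before it and that in *Tnfaip3* 12 to 3 bases before it. *Tnip1* had 2 matches, 1 on each strand, which overlap each other between 58 and 47 bases before the start. The promoters of *Nfkbib*, *Birc3* and *Bcl3* and a downstream promoter of *Tnfaip3* held no match of this form in this window. Other forms of the motif were not searched, so these promoters cannot be called free of it. A match is a run of letters only, and whether NF-κB bound there was not measured. The 4 promoters with a match are printed with that of *Birc3* beside them, a gene that was likewise higher in both DFAT libraries and has no match in this window. Each runs 5′ to 3′ along the strand of its gene, with the matches in capitals.
Nfkbia (chr12:55492598-55492897, reverse strand): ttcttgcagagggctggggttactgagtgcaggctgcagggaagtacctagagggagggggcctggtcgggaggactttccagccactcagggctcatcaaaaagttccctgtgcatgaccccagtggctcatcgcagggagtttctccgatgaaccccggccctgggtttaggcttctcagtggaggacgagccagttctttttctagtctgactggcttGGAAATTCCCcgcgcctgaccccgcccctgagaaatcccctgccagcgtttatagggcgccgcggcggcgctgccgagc
Nfkbie (chr17:45555450-45555749, forward strand): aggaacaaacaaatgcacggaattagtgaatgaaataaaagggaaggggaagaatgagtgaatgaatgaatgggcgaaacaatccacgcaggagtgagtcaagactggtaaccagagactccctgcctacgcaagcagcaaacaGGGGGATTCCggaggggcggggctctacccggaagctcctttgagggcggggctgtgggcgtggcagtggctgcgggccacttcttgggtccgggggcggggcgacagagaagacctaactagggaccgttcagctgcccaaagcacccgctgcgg
Tnfaip3 (chr10:19015361-19015660, reverse strand): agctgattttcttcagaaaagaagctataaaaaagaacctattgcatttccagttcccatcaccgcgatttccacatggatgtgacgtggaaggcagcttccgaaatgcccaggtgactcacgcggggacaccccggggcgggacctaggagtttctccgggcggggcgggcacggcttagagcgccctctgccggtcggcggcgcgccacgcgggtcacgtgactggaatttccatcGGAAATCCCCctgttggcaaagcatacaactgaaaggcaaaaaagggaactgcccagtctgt
Tnip1 (chr11:54962891-54963190, reverse strand): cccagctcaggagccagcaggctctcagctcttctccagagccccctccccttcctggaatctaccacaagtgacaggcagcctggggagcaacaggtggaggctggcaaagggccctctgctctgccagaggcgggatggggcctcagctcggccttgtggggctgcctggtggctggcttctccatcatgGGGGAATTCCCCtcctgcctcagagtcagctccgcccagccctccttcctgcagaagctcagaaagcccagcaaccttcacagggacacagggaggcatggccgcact
Birc3 (chr9:7873121-7873420, reverse strand): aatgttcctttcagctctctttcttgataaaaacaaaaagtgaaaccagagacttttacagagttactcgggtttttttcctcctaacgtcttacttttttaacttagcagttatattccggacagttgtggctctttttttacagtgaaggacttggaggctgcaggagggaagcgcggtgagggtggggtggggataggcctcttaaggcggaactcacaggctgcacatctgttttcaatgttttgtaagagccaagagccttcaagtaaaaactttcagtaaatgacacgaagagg

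*Nfkbia*, *Nfkbib* and *Nfkbie* encode the classical IκB proteins (IκBα, IκBβ and IκBε) that bind NF-κB in the cytoplasm. *Nfkbia* (ENSMUSG00000021025, chromosome 12, 55489410 to 55492647 on the reverse strand of GRCm38) is the best known of the genes that NF-κB turns on against itself. Its level was 464, 226, 44.3 and 42.5 CPM, from 85289, 41963, 8835 and 8387 UMIs. Both DFAT libraries were thus above both ASPC libraries, and the ASPC libraries lay close together (log2 ratio iWAT over eWAT 0.062, 95% interval 0.019 to 0.11). Intervals here and below hold counting error only, since there is 1 library per condition. A *Nfkbia* UMI was found in 97.5%, 92.2%, 59.7% and 59.3% of cells, and in 83.4%, 59.9%, 19.5% and 18.4% after every cell had been thinned to 5000 UMIs, a step that takes out the difference in depth. Since none of the cell types present is known to lack these genes, no cell type could serve as a background. Levels in the free RNA of droplets with 1 to 100 UMIs are given instead, and for *Nfkbia* they were 399, 184, 40.8 and 35.4 CPM. Over the 8 genes the free RNA level was 0.80 to 1.30 times that of the cells of its own library, so that free RNA followed the order of the cells.

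*Nfkbib* (ENSMUSG00000030595, chromosome 7, 28758251 to 28767512, reverse strand) is not known as a strong target of NF-κB, in contrast to *Nfkbia*. It stood at 31.9, 35.3, 22.9 and 24.1 CPM and was the member with the narrowest range over the libraries, from iWAT_ASPC as the lowest to eWAT_DFAT as the highest. After thinning, 14.9%, 16.5%, 10.7% and 11.4% of cells had a UMI. *Nfkbie* (ENSMUSG00000023947, chromosome 17, 45555703 to 45563169, forward strand) was counted at 10.5, 9.43, 2.40 and 4.33 CPM, with the DFAT libraries again above the ASPC libraries. A *Nfkbie* UMI was seen in 5.54%, 4.67%, 1.44% and 2.03% of thinned cells, so that in most cells this gene was below what the depth can show. *Nfkbib* overlaps *Sirt2* and *Ccer2* on the other strand of the genome.

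*Nfkbiz* and *Bcl3* encode nuclear relatives of the IκB proteins, which bind the p50 and p52 subunits on DNA and can raise as well as lower the transcription of chosen targets. *Nfkbiz* (ENSMUSG00000035356, chromosome 16, 55811375 to 55838899, reverse strand), which encodes IκBζ, was counted at 176, 53.2, 26.5 and 33.4 CPM. Cells with a UMI made up 53.9%, 22.4%, 11.8% and 14.3% after thinning. The iWAT_DFAT library stood apart from the other 3, among which the eWAT_DFAT library was 1.59-fold above eWAT_ASPC. *Bcl3* (ENSMUSG00000053175, chromosome 7, 19808462 to 19822770, reverse strand) had levels of 29.0, 8.90, 5.80 and 10.3 CPM and a UMI in 13.8%, 5.04%, 3.29% and 5.40% of thinned cells. It was the only member of the 8 for which an ASPC library (eWAT_ASPC) was above a DFAT library (eWAT_DFAT), by a log2 ratio of 0.21 (95% interval 0.11 to 0.30). The short genes *Gm16174* and *Gm16175* overlap *Bcl3* on the other strand.

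*Tnfaip3* encodes A20, an enzyme that removes and rebuilds ubiquitin chains on signaling complexes, and *Tnip1* encodes ABIN1, a ubiquitin-binding partner of A20. *Tnfaip3* (ENSMUSG00000019850, chromosome 10, 19000910 to 19015657, reverse strand) had the widest range of the 8 genes, at 110, 16.0, 2.73 and 1.25 CPM from 20237, 2964, 545 and 247 UMIs. A *Tnfaip3* UMI was present in 71.0%, 28.2%, 6.41% and 3.32% of cells, and in 36.1%, 7.58%, 1.35% and 0.697% of thinned cells. Its level in the free RNA was 119, 18.2, 2.66 and 1.27 CPM, close to that of the cells in each library, and at the few UMIs of the ASPC libraries detection in a cell cannot be told apart from free RNA. *Tnip1* (ENSMUSG00000020400, chromosome 11, 54910785 to 54962917, reverse strand) moved over a smaller range, at 60.9, 40.8, 15.5 and 16.3 CPM. Cells with a *Tnip1* UMI after thinning were 25.8%, 17.4%, 7.58% and 7.12%. The gene *Gm12230* overlaps *Tnip1* on the other strand.

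*Birc3* (ENSMUSG00000032000, chromosome 9, 7848699 to 7873186, reverse strand) encodes cIAP2, a ubiquitin ligase at the TNF receptor that holds back cell death and the noncanonical branch of the pathway. Its level was 55.3, 17.2, 8.32 and 7.56 CPM, and 23.3%, 8.29%, 3.62% and 3.65% of thinned cells had a UMI. The 4 libraries thus ranked as for *Nfkbia* and *Tnfaip3*, with the iWAT_DFAT library well above the rest. For every member, each library differed from the next in rank by more than the counting interval, but at these depths differences as small as a log2 ratio of 0.062 pass that mark, and differences between cultures of 1 condition were not measured.

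**Figure D1:**
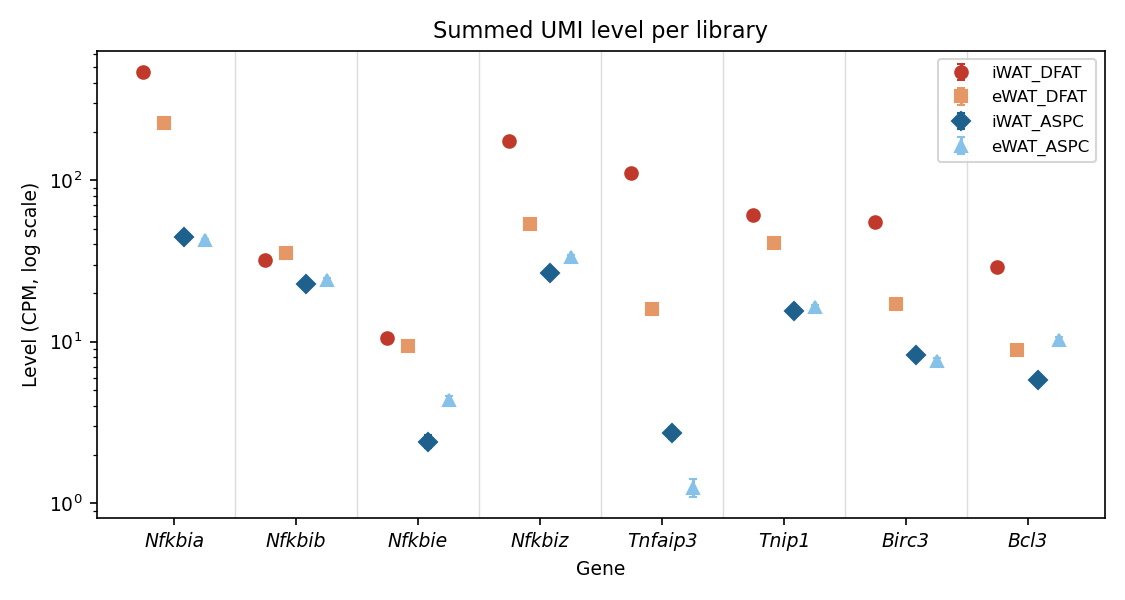
Level of each gene in CPM (log axis) summed over the cells of each of the 4 libraries, with bars for the 95% Poisson interval, most of them smaller than the symbol. For 7 of the 8 genes both DFAT libraries lie above both ASPC libraries, and *Bcl3* is the exception. The share of all genes with this order was not computed. Levels of different genes are not scaled for length and are not to be set against each other.

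The first comparison asks how the depot of origin relates to these genes in DFAT cells. The iWAT_DFAT library was higher for 7 of the 8 genes, beside 52.4% of all genes that were higher beyond the counting interval. It was at least 2-fold higher for 5 (*Nfkbia*, *Nfkbiz*, *Tnfaip3*, *Birc3* and *Bcl3*). Of the 10384 genes at 5 CPM or more in either library, 8.29% were at least 2-fold higher in iWAT_DFAT and 3.95% at least 2-fold lower. Since the genes were chosen with this contrast in view, nothing is read from the count, which was 4 without *Nfkbia* (0.95) once ratios were centred on the median gene. The log2 ratio of iWAT_DFAT over eWAT_DFAT was 2.79 for *Tnfaip3* (95% interval 2.73 to 2.84), a 6.90-fold difference. *Nfkbiz*, *Bcl3* and *Birc3* followed with log2 ratios of 1.73, 1.70 and 1.69. *Nfkbia* lay just past the 2-fold mark, at 1.04 (95% interval 1.02 to 1.06), while *Tnip1* lay inside it at 0.58. *Nfkbie* differed by only 0.15. *Nfkbib* alone was lower in iWAT_DFAT, at -0.15 (95% interval -0.20 to -0.095). The median over the 8 genes was 1.36 and that over all 10384 genes 0.091. The 8 stromal markers differed in the same direction, with 6 of 8 at least 2-fold higher in iWAT_DFAT and *Pdgfra* at 246 against 95.2 CPM, while the adipocyte markers at 5 CPM or more, 6 of 8, were all lower there. Only 3 adipocyte markers reached 5 CPM in iWAT_DFAT, so the rest entered through their level in eWAT_DFAT. The part of the stromal and adipocyte markers in the result was not tested.

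Between the ASPC libraries of the same depots the differences had no common direction, and they were smaller than between the DFAT libraries for 7 of the 8 genes, *Nfkbie* being the exception. The log2 ratio of iWAT_ASPC over eWAT_ASPC lay between -0.85 for *Nfkbie* and 1.13 for *Tnfaip3*, with a median of -0.076 against 0.053 over 10135 genes. *Tnfaip3* was the only member past 2-fold, and 2.94% of all genes were 2-fold or more higher and 3.94% lower. With the mean over cells in place of the sum its ratio was 0.89, and no member passed 2-fold. Both *Tnfaip3* levels (2.73 and 1.25 CPM) were under the 5 CPM that a gene needed to enter those shares, as were both levels of *Nfkbie*. *Bcl3* stood at -0.82 and *Nfkbiz* at -0.34, towards the eWAT side. *Nfkbia*, *Nfkbib*, *Tnip1* and *Birc3* lay between -0.078 and 0.14. Markers moved here too, with 7 of 8 mesothelial and 3 of 5 endothelial markers at least 2-fold lower in iWAT_ASPC and 3 of 3 glial markers at least 2-fold higher. In iWAT_ASPC 1 mesothelial and 3 glial markers reached 5 CPM, and in eWAT_ASPC 8 and 0. No mesothelial marker was dropped by this mark, and the glial markers that it dropped were higher in iWAT_ASPC as well. The part of these markers was not tested. With 1 library per condition, whether the depot difference of DFAT cells differs from that of ASPCs could not be tested.

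DFAT cells were then set against ASPCs within each depot. These comparisons share their libraries with the 2 above, so they are not independent of them. In iWAT, all 8 genes were higher in DFAT cells, beside 52.6% of 10426 genes that were higher beyond the counting interval. At least 2-fold higher were 7, all but *Nfkbib* (0.48), while 9.91% of the 10426 genes passed the same mark and 5.18% were at least 2-fold lower. The log2 ratio of iWAT_DFAT over iWAT_ASPC was 5.33 for *Tnfaip3* (95% interval 5.21 to 5.46), a 40.3-fold difference. *Nfkbia* was 10.5-fold higher, at a log2 ratio of 3.39. *Nfkbiz* and *Birc3* were both at 2.73, *Bcl3* at 2.32, *Nfkbie* at 2.13 and *Tnip1* at 1.98. The median of the 8 genes was 2.53.

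In eWAT, 5 of the 8 genes were at least 2-fold higher in DFAT cells than in ASPCs, beside 6.44% of 10298 genes that were higher and 6.67% that were lower by as much. *Tnfaip3* led again with a log2 ratio of 3.67 (95% interval 3.49 to 3.87), and *Nfkbia* came next at 2.41. *Tnip1*, *Birc3* and *Nfkbie* were at 1.32, 1.19 and 1.12. *Nfkbiz* (0.67) and *Nfkbib* (0.55) were higher by less than 2-fold, and *Bcl3* was lower in DFAT cells at -0.21. The median was 1.16. Markers moved in the same comparison, with all 6 adipocyte markers at 5 CPM or more at least 2-fold higher in eWAT_DFAT, all 8 mesothelial markers at least 2-fold lower and 4 of 8 stromal markers at least 2-fold lower. A marker entered by reaching 5 CPM in either library. In eWAT_DFAT 6 adipocyte and 0 mesothelial markers did so, and in eWAT_ASPC 1 and 8. No mesothelial marker was dropped by this rule. Of the adipocyte markers it dropped *Lep*, at 0 UMIs in both libraries, and *Pck1*, at 24 UMIs in eWAT_DFAT and 0 in eWAT_ASPC. In iWAT, 3 of 3 adipocyte markers and 4 of 8 stromal markers were at least 2-fold higher in DFAT cells, and 1 stromal marker was at least 2-fold lower. Also at least 2-fold lower were 3 of 3 glial markers and the 1 mesothelial marker that entered, *Krt19*. In iWAT_DFAT 3 adipocyte and 0 glial markers reached 5 CPM, and in iWAT_ASPC 1 and 3. The glial markers that the rule dropped were lower in iWAT_DFAT too. Of the dropped adipocyte markers *Adipoq*, *Cidec* and *Retn* were higher there, and *Lep* and *Pck1* had 0 UMIs in both libraries. The part of these cells or markers in the levels of the members was not tested beyond leaving out the marker groups described below. *Nfkbiz* and *Bcl3* thus passed 2-fold in iWAT but not in eWAT, and whether the depots differ in this was not tested.

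**Figure D2:**
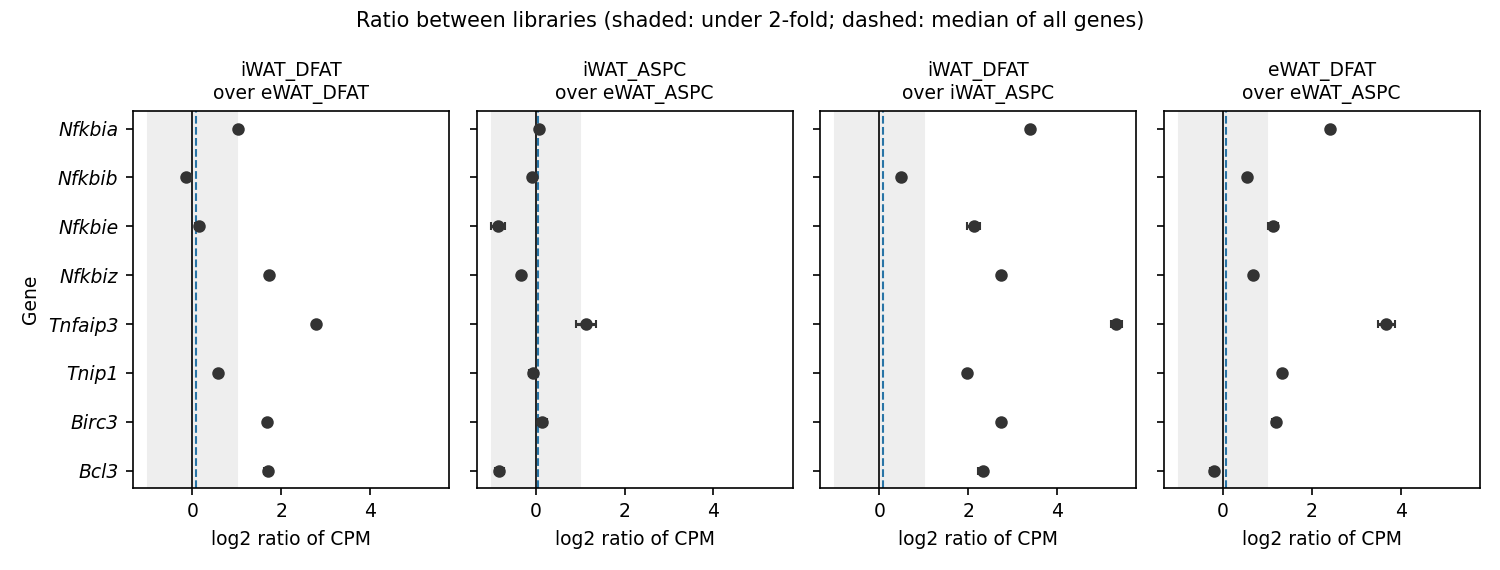
log2 ratio of CPM for the 8 genes in 4 comparisons of 2 libraries each, with 95% counting intervals. The shaded band marks differences under 2-fold and the dashed line is the median of all genes at 5 CPM or more. *Tnfaip3* has the largest ratio in every panel, and the ASPC panel has all other genes within the band.

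Other genes of the pathway were read from lists of their own. All 5 genes of the NF-κB subunits were higher in iWAT_DFAT than in eWAT_DFAT, but the study had already shown this family on these libraries, so this is no independent evidence. Of all genes at 5 CPM or more, 52.4% were higher there beyond the counting interval. *Nfkb1*, which encodes p105 and p50, was counted at 307, 149, 55.5 and 50.4 CPM and was the only subunit past 2-fold, at a log2 ratio of 1.04. *Rel*, *Relb*, *Rela* and *Nfkb2* were at 0.99, 0.94, 0.61 and 0.44. The 3 genes of the IKK complex differed little: *Ikbkb* by 0.042, *Chuk* by -0.046 and *Ikbkg* by -0.47 on the log2 scale.

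Of 14 other brakes of the pathway, 12 reached 5 CPM and 1 was at least 2-fold higher in iWAT_DFAT, a share close to the 8.29% of all genes. This was *Zfp36*, whose product speeds the decay of cytokine mRNAs, at 342, 55.4, 29.2 and 63.4 CPM. *Zc3h12a*, which encodes the ribonuclease Regnase-1, and *Tnip2* followed with log2 ratios of 0.61 each, and *Traf3* with 0.39. Median log2 ratios were 0.23 for these brakes and 1.36 for the 8 members. *Cyld*, a deubiquitinase of the same receptor complexes as A20, stood at 34.4, 33.5, 18.7 and 24.8 CPM.

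Among 21 receptors and adaptors at 5 CPM or more, 3 were at least 2-fold higher in iWAT_DFAT and 0 lower, beside 8.29% and 3.95% of all genes. *Il1r1*, the signaling receptor of IL-1, reached 881 CPM in iWAT_DFAT and 183 in eWAT_DFAT, against 106 and 95.5 in the ASPC libraries. *Tlr2*, a receptor of bacterial lipoproteins, stood at 5.87 against 2.07 CPM in the DFAT libraries. *Tnfrsf1a*, the main TNF receptor, had a log2 ratio of 1.32, and *Myd88*, the adaptor of IL-1 and Toll-like receptors, one of 0.91. Of 8 ligands, 3 reached 5 CPM in a DFAT library. *Tnfsf12*, which encodes TWEAK, stood at 25.4, 18.6, 28.5 and 34.9 CPM. *Tnf* had 24 UMIs in iWAT_DFAT and 71 in eWAT_DFAT, *Il1a* stood at 3.83, 12.3, 0.00502 and 0.0304 CPM and *Il33* at 21.8, 3.08, 7.95 and 3.61 CPM. *Il1r1* was thus highest in iWAT_DFAT, as were all members but *Nfkbib*, while *Tnf* and *Il1a* were higher in eWAT_DFAT than in iWAT_DFAT.

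Of 20 secreted and surface targets at 5 CPM or more, 8 were at least 2-fold higher and 1 at least 2-fold lower in iWAT_DFAT, beside 8.29% and 3.95% of all genes, with a median log2 ratio of 0.80. *Mmp9*, *Saa3* and *Ccl5* were at 2.73, 2.19 and 2.11, and *Cxcl10* at 1.99. *Ccl20* was lower, at -1.43. The chemokines *Ccl2*, *Ccl7* and *Cxcl2* differed by -0.11, -0.0029 and -0.17. Against ASPCs these targets had medians of 3.45 in iWAT and 2.97 in eWAT. At least 2-fold higher in DFAT cells were 18 of 19 and 12 of 17, beside 9.91% and 6.44% of all genes. A target entered by reaching 5 CPM in either library, and between the ASPC libraries only 14 did so. Some thus entered through their level in DFAT cells alone, a rule that raises these medians.

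Early response genes, which rise within minutes of many stimuli including the dissociation of cells, were also higher in iWAT_DFAT, where 5 of the 8 members passed 2-fold. Of 14 such genes 10 were at least 2-fold higher in iWAT_DFAT than in eWAT_DFAT, beside 8.29% of all genes, and their median log2 ratio was 1.62. *Fosb* and *Fos* had ratios of 3.39 and 3.08, *Egr1* 2.30 and *Btg2* 2.15. In iWAT the list was also higher in DFAT cells than in ASPCs, with 10 of 14 past 2-fold, beside 9.91% of all genes, and a median of 2.00. In eWAT 1 gene was 2-fold higher and 2 were lower, beside 6.44% and 6.67% of all genes, with a median of -0.23, while the 8 genes had a median of 1.16 there. The part of this response in the levels of the 8 genes was not tested. The list and the members were counted in the same libraries, so the comparisons share them.

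**Figure D3:**
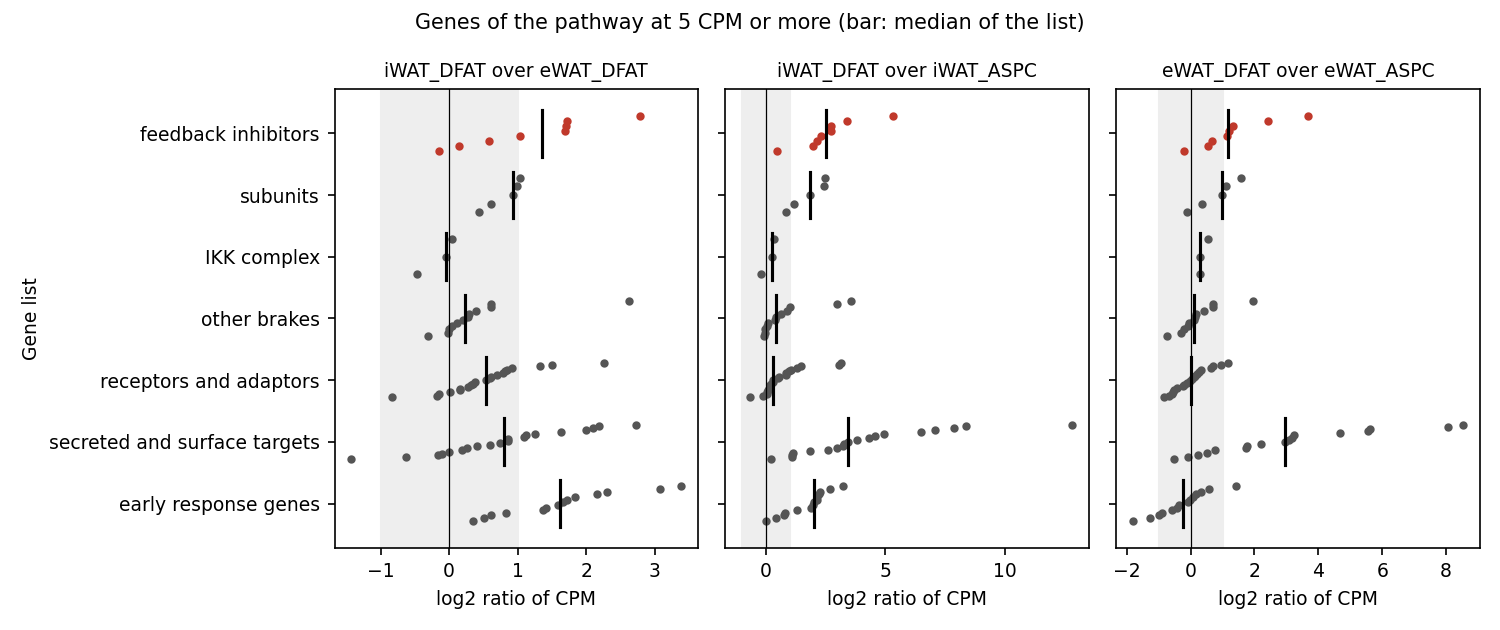
log2 ratio of CPM for the genes at 5 CPM or more of each list, in 3 comparisons, with a bar at the median of the list and a band for differences under 2-fold. Members are in red. Early response genes lie to the right in both panels that hold iWAT_DFAT and around 0 in eWAT_DFAT over eWAT_ASPC. In that panel 7 of 8 members and 15 of 17 secreted targets are above 0, beside 51.0% of all genes beyond the counting interval.

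Within a library, the cells that carried markers of other types or of mitosis were set apart by counting marker genes with a UMI. Endothelial-marker cells (3 or more of 8 markers) numbered 22, 158, 58 and 168. In iWAT_ASPC these cells had 173 CPM of *Nfkbia* against 43.6 in the other cells, and in eWAT_ASPC 150 against 40.4. *Tnip1* stood at 64.7 against 15.2 CPM and at 43.9 against 15.8 CPM in the same libraries. In eWAT_DFAT the endothelial-marker cells were above the others for all 8 genes, with the largest log2 ratio for *Birc3* (1.42). They were also shallower, at a median of 12329 UMIs against 27646 in that library. In iWAT_DFAT the 22 such cells were lower for *Nfkbia* (351 against 465 CPM) and for *Tnfaip3* (39.3 against 110 CPM, log2 ratio -1.49), and higher for *Tnip1* (98.2 against 60.8 CPM).

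Mesothelial-marker cells (5 or more of 8 markers) were found as 465 cells of eWAT_ASPC, 40 of eWAT_DFAT and 0 in both iWAT libraries. In eWAT_ASPC they had more *Tnfaip3* (4.88 against 1.02 CPM, log2 ratio 2.25), *Nfkbiz* (69.8 against 31.1 CPM) and *Bcl3* (20.9 against 9.61 CPM) than the other cells. In the 40 cells of eWAT_DFAT *Bcl3* (1.55) and *Nfkbiz* (0.42) were also higher, while *Tnfaip3* was at 0.31 with an interval that spans 0. There *Birc3* (-1.54, from 6 UMIs), *Tnip1* (-0.67, beside 0.80 in eWAT_ASPC) and *Nfkbib* (-0.64) were lower beyond the counting interval. Immune-marker cells numbered 2, 5, 6 and 28 and glial-marker cells 18, 2, 143 and 0. Leaving out all cells of these 4 groups was an alternative chosen after seeing the data. Without them the medians of the 8 genes were 1.39 for iWAT_DFAT over eWAT_DFAT, -0.030 for the ASPC libraries, 2.53 in iWAT and 1.17 in eWAT, and every count of genes past 2-fold was as before.

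Mitosis-marker cells (5 or more of 8 markers such as *Top2a* and *Mki67*) numbered 2834, 2928, 2956 and 2013. In both DFAT libraries they held less of the inhibitors than the remaining cells. For *Tnfaip3* the levels were 69.1 against 143 CPM in iWAT_DFAT (log2 ratio -1.05), and in eWAT_DFAT the log2 ratio was -0.95. *Nfkbiz* was at -0.64 and -0.51 and *Nfkbia* at -0.43 and -0.30 in these libraries. *Bcl3* and *Nfkbib* differed least, between -0.20 and -0.041, the last of these (*Bcl3* in eWAT_DFAT) with an interval that spans 0. In the ASPC libraries the ratio for *Tnfaip3* was 0.013 and -0.19, both with intervals that span 0, and for *Nfkbia* 0.0061 and -0.13. *Nfkbiz* was at -0.18 in both, and *Nfkbie* and *Birc3* at -0.27 and -0.21 in eWAT_ASPC, so these and *Nfkbia* in eWAT_ASPC were lower beyond the counting interval as in the DFAT libraries. These cells were deeper, with medians of 27686 to 31955 UMIs, and a level in CPM is a share of all UMIs of the cells, so less of a gene and more of other RNA cannot be told apart.

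The 8 genes were next counted together in single cells, each thinned to 5000 UMIs. Cells of iWAT_DFAT had UMIs of 2.57 of the 8 genes on average, and those of eWAT_DFAT, iWAT_ASPC and eWAT_ASPC of 1.42, 0.594 and 0.630. None of the 8 was seen in 4.85%, 20.1%, 54.4% and 51.5% of cells. At least 4 were seen in 23.7%, 4.30%, 0.216% and 0.267%, and no cell of any library had all 8. In iWAT_DFAT the 10% of cells with the most *Tnfaip3* held 49.0% of its thinned UMIs, while those with the most *Nfkbia* held 27.8% of its UMIs, a share that grows as a gene gets scarcer and was 70.4% for *Nfkbib*. Beyond counting noise, the squared coefficient of variation of *Tnfaip3* over iWAT_DFAT cells was 1.18, at the 85.4th percentile of 10013 genes, and that of *Nfkbia* was 0.314, at the 55.7th percentile. In eWAT_DFAT, iWAT_ASPC and eWAT_ASPC *Nfkbia* stood higher, at the 69.9th, 76.8th and 89.6th percentile. *Tnfaip3* was at the 92.8th, 65.2nd and 96.5th percentile there, from few UMIs in the ASPC libraries.

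**Figure D4:**
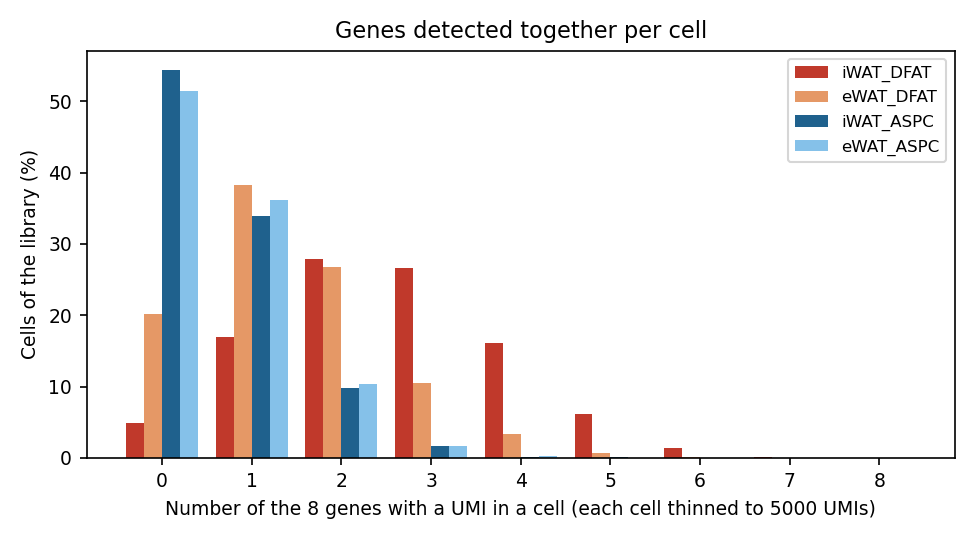
Share of cells (%) by how many of the 8 genes had a UMI in the cell after thinning to 5000 UMIs, in 4 libraries. Most iWAT_DFAT cells have 1 to 4 of the genes, and the largest group of both ASPC libraries has 0.

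Pairs of members were correlated across the cells of each library, as Pearson's r of log-transformed counts per 10000 UMIs. All values are descriptions over 7629, 6464, 7424 and 6745 cells that share a library, and counts of scarce genes pull r towards 0. The median of the 28 pairs was 0.102, 0.109, 0.036 and 0.043. All 28 pairs were above 0 in both DFAT libraries, and 25 and 24 were in the ASPC libraries. In thinned cells *Nfkbib* was below 0 with *Nfkbie* (-0.0024) and *Birc3* (-0.00090) in iWAT_DFAT and with *Bcl3* (-0.0020) in eWAT_DFAT. Pairs of other genes were not counted, so nothing is read from the number above 0. The highest pair of iWAT_DFAT was *Nfkbia* with *Tnfaip3* (0.455), followed by *Nfkbiz* with *Tnfaip3* (0.354) and *Nfkbia* with *Nfkbiz* (0.352). In eWAT_DFAT it was *Nfkbia* with *Tnip1* (0.328), followed by *Nfkbia* with *Tnfaip3* (0.300). In the ASPC libraries no pair passed 0.118. The 7 pairs of *Nfkbib* lay between 0.0018 and 0.052 in iWAT_DFAT. After thinning to 5000 UMIs the medians were 0.047, 0.039, 0.013 and 0.0093, and *Nfkbia* with *Tnfaip3* was at 0.246, 0.115, 0.012 and 0.053. The part that level and depth have in the gap between libraries was not tested. All cells were used, those with endothelial or mitosis markers included, and the part of these cells in r was not tested.

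**Figure D5:**
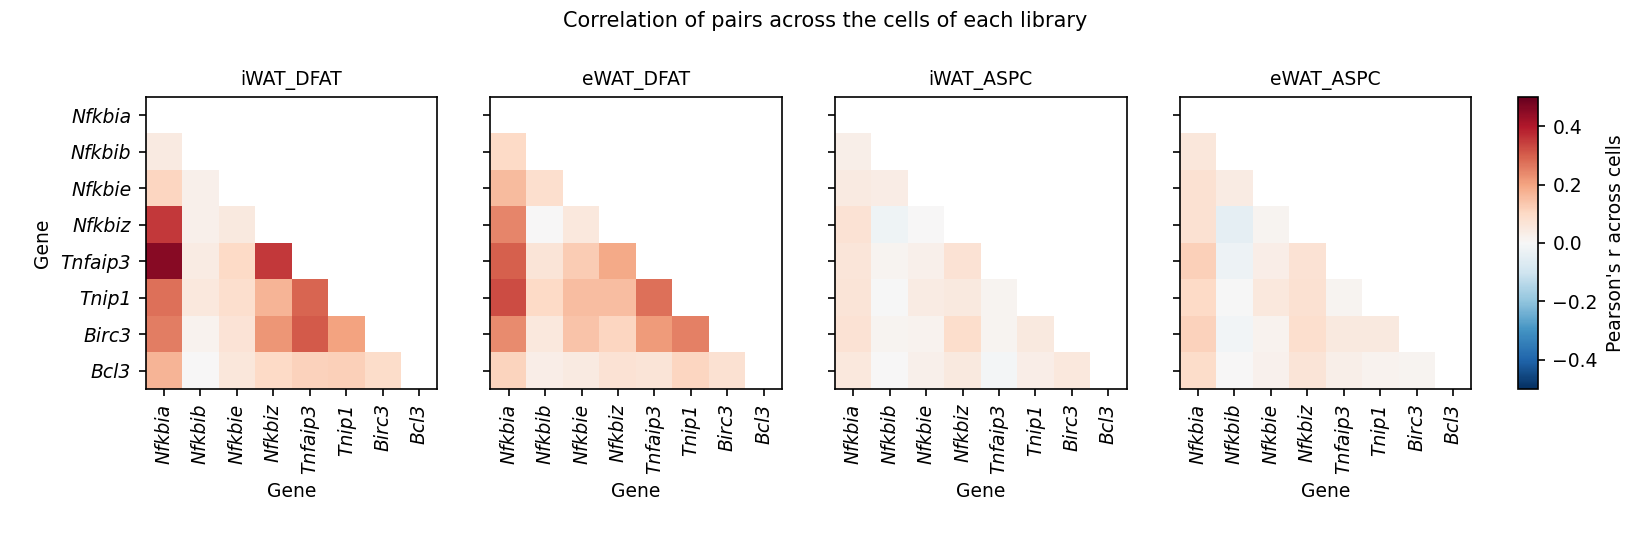
Pearson's r across cells for the 28 pairs of the 8 genes, 1 panel per library, on a color scale from -0.5 to 0.5. The darkest cell is *Nfkbia* with *Tnfaip3* in iWAT_DFAT (0.455), while *Nfkbia* with *Tnip1* is darker in eWAT_DFAT (0.328) than in iWAT_DFAT (0.276). No cell of the ASPC panels passes 0.118.

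The members were also correlated with the mean of other lists in the same cells. *Nfkbia* went with the secreted and surface targets at r of 0.573, 0.468, 0.171 and 0.273, and with the early response genes at 0.606, 0.418, 0.199 and 0.200. Thinned cells gave 0.409, 0.298, 0.083 and 0.145 for the targets and 0.396, 0.248, 0.091 and 0.084 for the early response genes. In iWAT_DFAT thinning thus reversed the order of targets and early response genes for *Nfkbia*. Values of the other members are given before thinning only, so their orders may depend on depth. *Tnfaip3* was closer to the targets (0.461 and 0.319 in the DFAT libraries) than to the early response genes (0.399 and 0.244). *Nfkbiz* had the opposite order, with 0.303 and 0.229 for the targets and 0.444 and 0.366 for the early response genes. *Tnip1* leaned to the targets, at 0.312 and 0.380, over the early response genes, at 0.223 and 0.199. With the NF-κB subunits, *Tnfaip3* had 0.437 and 0.301 in the DFAT libraries and *Nfkbib* 0.0098 and 0.088. The correlation with a cell's depth (log UMIs) was weak for all members, between -0.164 and 0.076.

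For each member the genes most like it across cells were taken as those with the highest r in the library where it was lowest, among 5120 genes at 20 CPM or more in every library. For *Nfkbia* these were *Ccl2* (r of 0.396, 0.412, 0.142 and 0.281), *Cebpb* and *Nfib*, each with a lowest r of at least 0.136. *Ccl2* encodes a monocyte chemokine and *Cebpb* a transcription factor of inflammation and adipogenesis. *Nfkbiz* was most like *Fndc3b* (0.370, 0.244, 0.221 and 0.213), the nuclear RNA *Malat1* and *Ext1*, at 0.206 or more in every library. *Tnfaip3* had *Zfpm2*, *Ghr* and *Pcdh7*, at a lowest r of 0.075 to 0.082. *Tnip1* had *Tcf4*, *Ppp3ca* and *Nfib* (0.093 to 0.105), *Birc3* had *Tcf4*, *Rbms3* and *Rrbp1* (0.104 each) and *Bcl3* had *Tgfbr3*, *Il1r1* and *Bicc1* (0.109 to 0.131). *Nfkbie* had *Ccl2*, *Ecscr* and *Cd47*, none above a lowest r of 0.076. *Nfkbib* had *Ubb* and *Ccl2* at 0.066 and 0.062. Only *Nfkbia*, *Nfkbib* and *Nfkbiz* among the members reached 20 CPM in every library and could be listed for another member. Values this low in sparse counts are no more than a ranking.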

How the data were processed

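Droplet-based single-cell RNA sequencing (10x Genomics 3′ chemistry) of 4 libraries, 1 per condition, was analysed. The files hold UMI counts for each gene and droplet, empty droplets included, as deposited by the authors, who used mm10. The submitters' notes name Cell Ranger 7.0.0, while the file headers name 7.1.0 for 3 libraries and 4 for iWAT_ASPC. The study counted intron reads, but whether this held under each version is not given in the headers. Over classes of intron length, the median log2 ratio of iWAT_ASPC over eWAT_ASPC rose from -0.028 (short introns) to 0.13 (the longest). That of iWAT_DFAT over iWAT_ASPC rose from -0.075 for genes with short introns to 0.32 for those with the longest. The median rose likewise, from -0.046 to 0.30, for iWAT_DFAT over eWAT_DFAT, whose headers name the same version. The part of the version in this was not tested. Strand use in counting is not given in the sources used here, so reads of genes that overlap on the other strand may not be told apart. The integration of libraries done in the study was not repeated here, and its stated cell number is higher for eWAT_DFAT and lower for the other libraries than the number of barcodes kept here. Doublets were kept, since the own threshold of Scrublet marked at most 0.0445% of cells, and their removal by rank was an alternative.

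Cells were chosen by UMIs, genes and mitochondrial share, with a minimum of 5000 UMIs in place of the 500 that the study used, which was an alternative. Counts were summed over cells and scaled to CPM (per 1000000 UMIs) with exact Poisson intervals, ratios had exact conditional binomial intervals and shares of cells had Clopper-Pearson intervals, all at 95%. A gene with 0 counts could have had up to 0.0150 to 0.0163 CPM (3 counts per library). Since every cell had at least 5000 UMIs, thinning dropped none. No test across samples was made, with 1 library per condition. Gene positions are from GENCODE M21 (GRCm38), in which 32235 of 32285 gene IDs were found. The members, the gene lists and the named genes were chosen with earlier results of these data known. Named genes are the 8 members, all subunits and IKK genes, up to 4 genes of each other list with the largest difference between the DFAT libraries and the 3 most similar genes of each member, of which 1 for *Nfkbib* is not reported here. *Cyld*, *Tnf*, *Ccl20*, *Ccl2*, *Ccl7*, *Cxcl2* and some markers were named after their values were seen. The scripts were tested on simulated data and used scanpy 1.11.5, matplotlib 3.10.9, scipy 1.17.1, pandas 2.3.3 and numpy 2.4.6 under Python 3.11.15.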

Additional observations from a re-analysis of the deposited data

Results flagged for a closer look

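With 1 library per condition the following differences between effects could not be tested. Each was picked out because the log2 ratios of the same contrast had opposite signs, with counting intervals that exclude 0 on either side. The depot difference (iWAT over eWAT) was positive among DFAT cells and negative among ASPCs for *Bcl3*, *Nfkbiz*, *Nfkbie* and *Tnip1*. Taken singly, 52.4% of all genes at 5 CPM or more were above 0 beyond the counting interval between the DFAT libraries and 35.7% were below 0 between the ASPC libraries. The share that met both was not computed, so nothing is read from how many members did. For *Bcl3* the ratios were 1.70 and -0.82, a difference of 2.53. *Nfkbiz* had 1.73 and -0.34, a difference of 2.06. For *Nfkbie*, which was under 5 CPM in both ASPC libraries, they were 0.15 and -0.85, a difference of 1.001. *Tnip1* had 0.58 and -0.074, a difference of 0.65, and the second of these turned to 0.013 once cells with endothelial, immune, glial or mesothelial markers were left out. The same counts seen the other way give *Bcl3* higher in DFAT cells than in ASPCs in iWAT (2.32) and lower in eWAT (-0.21), again a difference of 2.53. With the same cells left out, the ASPC ratios were -0.74 for *Bcl3*, -0.22 for *Nfkbiz* and -0.84 for *Nfkbie*, beside DFAT ratios of 1.74, 1.75 and 0.16, so their opposite signs remained.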

How the results depend on the processing

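Each ratio was recomputed under 5 alternatives and under 2 more chosen after seeing the data, which left out mitosis-marker cells or the cells of 4 other marker groups. Of the 224 resulting ratios of single genes, 222 had the same sign as before and 222 lay on the same side of 2-fold, with a largest shift of 0.38. Centring on the median gene moved the medians of the 8 genes to 1.27 for iWAT_DFAT over eWAT_DFAT and to 2.44 for iWAT_DFAT over iWAT_ASPC, and put *Nfkbia* under 2-fold between the DFAT libraries (0.95). Leaving out mitosis-marker cells moved the medians of DFAT cells over ASPCs to 2.68 in iWAT and 1.29 in eWAT. With the mean over cells in place of the sum, 0 genes in place of 1 (*Tnfaip3*, at 0.89) were 2-fold higher in iWAT_ASPC than in eWAT_ASPC. Thinning moved the median correlation of pairs to 0.047, 0.039 and 0.0093 in iWAT_DFAT, eWAT_DFAT and eWAT_ASPC, beside Spearman's rho of 0.094, 0.090 and 0.033. With genes at 1 CPM or more in place of 5, the genes at least 2-fold higher and lower went from 298 and 399 to 666 and 714 between the ASPC libraries, and from 663 and 687 to 1196 and 1085 for eWAT_DFAT over eWAT_ASPC. Those lower went from 410 to 808 between the DFAT libraries and from 540 to 965 for iWAT_DFAT over iWAT_ASPC. A minimum of 500 UMIs per cell, removal of the cells with the highest doublet scores and subtraction of free RNA moved no median beyond its counting bounds. These bounds are the medians of the lower and of the upper bounds of the 8 genes, and hold neither the spread of genes nor that of cultures. No paired analysis was possible because there was 1 library per condition. In ASPCs, where fewer than 6% of thinned cells had a UMI of *Nfkbie*, *Tnfaip3*, *Birc3* or *Bcl3*, depth limits what can be said of single cells.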

Other observations

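The mitosis-marker cells held between 29.8% (eWAT_ASPC) and 45.3% (eWAT_DFAT) of the cells. *Nfkbie*, like *Tnfaip3*, was lower in them in both DFAT libraries, at log2 ratios of -0.49 and -0.55. The glial-marker cells of iWAT_DFAT, 18 in all, had 16.0 CPM of *Tnfaip3* from 4 UMIs against 110 in the other cells and 0 UMIs of *Birc3*. Among the 143 glial-marker cells of iWAT_ASPC *Nfkbia* stood at 42.6 against 44.3 CPM.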
